A study of Mus musculus with 44 samples.

Results

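Genomic imprinting leaves a gene active from the chromosome of only one parent, and many imprinted genes set fetal and brain growth or act in neurons. Described here are 9 such genes of the mouse, out of 55335 genes in a table of ribosome-bound mRNA counts from the hippocampus: Cdkn1c, Plagl1, Grb10, Peg3, Zdbf2, Ndn, Magel2, Nnat and Impact. They were chosen by name, after earlier results of these data were known, and partly because Cdkn1c had been seen to be lower after early-life exercise (ELE) in 2 of the 3 isolations. The table was searched for the Ensembl identifiers that carry these symbols, and all 9 were found and passed the filter on low counts in every comparison. The counts pool both parental alleles, so imprinting itself could not be checked.

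All mice were male offspring of Emx1-IRES-Cre females and NuTRAP males, in which cells that have expressed Emx1, mainly forebrain excitatory neurons and some glia, bear tags on a ribosomal protein and on the nuclear envelope. Translating ribosome affinity purification followed by sequencing (TRAP-seq) was applied to 20 hippocampal samples, 1 per mouse. ELE mice had a running wheel in the cage from postnatal day 21 to 41, and sedentary mice, also pair-housed, had none. In the simultaneous isolation of nuclei and RNA (SIT) both hippocampi were combined, from 4 ELE and 4 sedentary mice. In the separate isolations RNA was taken from the left or the right hippocampus alone, from 3 ELE and 3 sedentary mice each. The columns carried mouse numbers, which were tied to groups through the study's list of libraries. Which hemisphere is which rests on that list alone: read in order against the sample records, the columns of the separate isolations would have left and right swapped in 12 of 12, with exercise group the same and all 8 SIT columns matching. The order was not used, and every left and right value below would change sides if the list were wrong.

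Between 45895097 and 65767802 counts fell on genes in each library. The SIT values below use 3 ELE and 2 sedentary libraries, those the study kept, and the values over all 8 SIT libraries follow where they differ. The libraries left out stood apart: mitochondrial genes took 8.64% and 9.64% of the counts in 2 sedentary mice (NT7.2.3, NT7.2.4), against at most 0.523% in the 17 libraries kept, and the summed level of 8 interneuron markers was 867 and 898 CPM there against 42.4 to 81.9 CPM. The ELE library left out (NT6.304) had 59.6 CPM of hypothalamic peptide markers, of which Trh gave 52.7 and Gal 5.35 CPM, against a sum of at most 12.5 CPM. Excitatory markers summed to between 6919 and 10588 CPM in the kept libraries, and all 8 were detected in each group. Within SIT the TG7.4 mice were ELE only and the NT7.2 mice sedentary only, and for these exercise and the number's first part cannot be told apart. In the separate isolations, the level of Ttr, the abundant transthyretin mRNA of the choroid plexus, was above 500 CPM in 4 libraries (1 left ELE, 2 left sedentary, 1 right sedentary) and at most 55.4 CPM in the other 8.

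The 9 genes fall into several roles. Cdkn1c encodes p57, a Cip/Kip inhibitor of G1 cyclin-dependent kinases that restrains growth. Plagl1 (Zac1) and Peg3 are zinc-finger transcription factors, and Plagl1 is known to regulate a network of imprinted genes that includes Cdkn1c. Grb10 is an adaptor that inhibits signalling by the insulin and IGF1 receptors. Ndn (necdin) and Magel2 are MAGE-family genes of the region lost in Prader-Willi syndrome. Nnat (neuronatin) is a small membrane protein of the endoplasmic reticulum that affects calcium handling, Impact is an inhibitor of the GCN2 arm of the stress response, and Zdbf2 is a paternally expressed gene needed for normal postnatal growth.

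The genes differed widely in level when counts were divided by exonic length. Levels are given as CPM, the count of a gene scaled to a common library size with TMM factors, and as CPM per kb of exon when genes are compared. Over the 17 kept libraries, Nnat (chr2:157560078-157562522, + strand, GRCm38) had a median of 297 CPM per kb, above 99.5% of the 19895 genes ranked. Ndn (chr7:62346569-62350262, + strand) followed with 51.5 CPM per kb and Impact (chromosome 18, + strand) with 31.5 CPM per kb. Nnat was above Ndn without overlap, whereas the ranges of Ndn and Impact overlapped, with Ndn the higher in 16 of 17 libraries. Peg3 (chr7:6703892-6730431, - strand) came next at 6.04 CPM per kb, apart from the genes on either side of it in the order.

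The lower part of the order overlapped from each gene to the next. Plagl1 (chr10:13060504-13131694, + strand) had a median of 2.23, Grb10 (chr11:11930508-12038683, - strand) 1.64 and Zdbf2 (chr1:63273265-63314576, + strand) 1.04 CPM per kb. Cdkn1c (chr7:143458339-143461050, - strand) had a median of 0.709 CPM per kb and Magel2 (chr7:62377010-62381640, + strand) 0.337 CPM per kb, above 35.2% and 26.8% of the genes ranked. Ndn and Magel2 lie 26.7 kb apart on the same strand, yet their levels per kb were far apart in these libraries. The lowest 2 genes rested on few reads, with 20 to 293 counts per library for Cdkn1c and 6 to 249 for Magel2.

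The 9 genes also differed in how much they varied between libraries. Across the 17 kept libraries the coefficient of variation of the level was 12.1% for Impact and 15.6% for Peg3, the steadiest, and 86.2% for Cdkn1c and 56.3% for Magel2. The highest library exceeded the lowest 17.5-fold for Cdkn1c, 7.09-fold for Magel2 and 4.0-fold for Plagl1. For the other 6 genes this ratio was between 1.44 and 2.17.

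**Figure D1:**
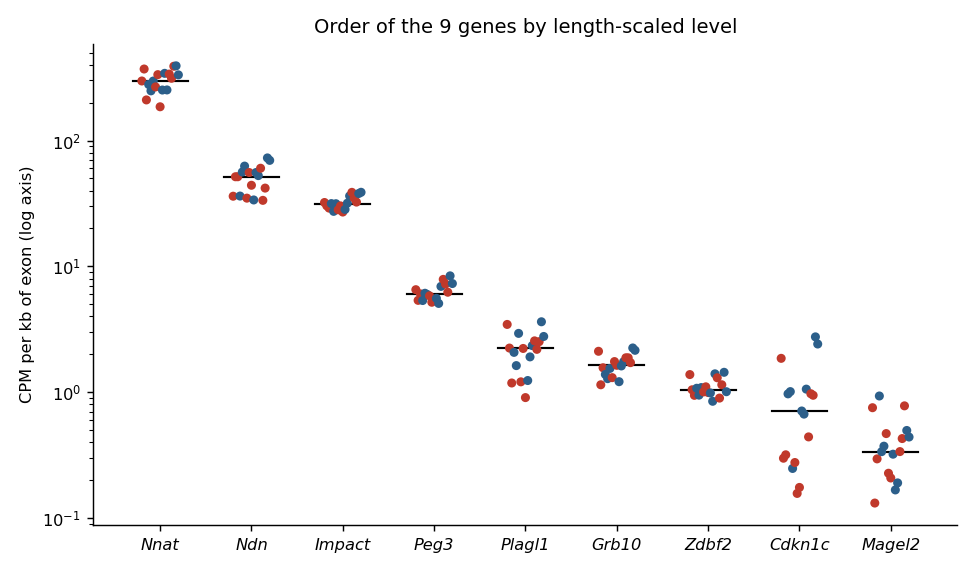
Level of each gene in CPM per kb of exon (log axis) in the 17 kept TRAP libraries, with red points for ELE, blue points for sedentary mice and a bar at the median. Nnat stands alone at the top with a median of 297, and the points of Cdkn1c and Magel2 at the bottom are the most spread.

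Promoter sequence was examined for 7 of the genes, which had 9 annotated starts among RefSeq promoter windows (GRCm38.p6); Cdkn1c and Impact had no entry. The 250 bases before each start were searched on both strands for TGCCGC, the core hexamer bound by ZFP57, a factor that keeps imprints through development, and for CGCATGCG, the core of the motif of the respiratory factor NRF1. TGCCGC was present in windows of 2 genes, Plagl1 and Zdbf2, and in 8.68% of all 32851 windows. CGCATGCG was present in the windows of Ndn and Nnat, and in 1.55% of all windows. The 4 windows are shown because they hold these letters, marked in capitals; Plagl1 and Ndn are also members with lower values in ELE mice below. A match is a description of letters and not a measured site. The windows follow RefSeq starts, and those of Plagl1 and Ndn lie inside the GENCODE spans given above.
Plagl1, chr10:13090582-13090831, + strand: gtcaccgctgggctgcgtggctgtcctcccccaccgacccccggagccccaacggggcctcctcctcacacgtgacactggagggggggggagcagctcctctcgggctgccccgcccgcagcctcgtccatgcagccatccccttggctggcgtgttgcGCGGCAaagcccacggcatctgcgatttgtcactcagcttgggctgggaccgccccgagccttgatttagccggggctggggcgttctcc
Zdbf2, the upstream start, chr1:63200108-63200357, + strand: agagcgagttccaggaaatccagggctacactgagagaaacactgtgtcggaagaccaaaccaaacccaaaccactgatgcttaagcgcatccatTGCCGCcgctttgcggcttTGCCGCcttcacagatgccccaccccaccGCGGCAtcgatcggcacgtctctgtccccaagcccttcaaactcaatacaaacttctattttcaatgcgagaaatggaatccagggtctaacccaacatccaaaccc
Ndn, chr7:62348027-62348276, + strand: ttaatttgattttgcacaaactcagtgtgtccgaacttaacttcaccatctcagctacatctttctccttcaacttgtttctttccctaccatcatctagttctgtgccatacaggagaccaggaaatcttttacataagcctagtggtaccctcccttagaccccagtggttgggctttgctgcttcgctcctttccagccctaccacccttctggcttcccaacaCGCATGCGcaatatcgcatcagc
Nnat, chr2:157559828-157560077, + strand: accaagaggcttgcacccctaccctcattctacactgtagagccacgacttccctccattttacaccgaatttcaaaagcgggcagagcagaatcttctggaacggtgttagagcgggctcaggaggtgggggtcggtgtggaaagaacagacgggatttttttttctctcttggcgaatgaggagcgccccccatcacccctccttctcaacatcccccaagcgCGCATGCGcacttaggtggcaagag

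The Zdbf2 window held the ZFP57 hexamer 3 times, and the Plagl1 window once. Plagl1 had 19 CpG dinucleotides in this window, more than 80.3% of all windows, whereas Ndn had 5, close to the median of 6. The richest member was the first Grb10 start (chr11:12037421-12037670, - strand), with 40 CpG, more than 98.7% of windows, and neither motif.

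The first comparison asked how the genes differed between ELE and sedentary mice in SIT. Cdkn1c was low in all ELE libraries. It measured 0.900, 1.98 and 1.93 CPM in the 3 ELE libraries kept and 5.61 and 4.92 CPM in the 2 sedentary ones. The groups did not overlap, and the ELE minus sedentary difference was -1.72 ± 0.37 on the log2 scale (log2 fold change ± SE). The excluded ELE library had 2.89 CPM and the excluded sedentary pair 4.24 and 5.14 CPM, so that the 4 ELE and 4 sedentary libraries also did not overlap, and the log2 fold change over all 8 was -1.38. This contrast helped to choose the genes, so its values are a description without a test, and Cdkn1c is left out of the counts of called genes in the contrasts that share these libraries. In bulk libraries such as these, fewer cells that express a gene and less mRNA per cell cannot be told apart.

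Ndn and Plagl1 were also lower in SIT ELE mice. Ndn measured 222, 124 and 155 CPM in ELE and 269 and 257 CPM in sedentary libraries, a log2 fold change of -0.66 ± 0.19. The 124 and 155 CPM came from mice TG7.4.1 and TG7.4.2, whose first part occurs in ELE only. The sedentary pair was above every ELE library, but with all 8 libraries the difference was -0.22 ± 0.28, and the excluded sedentary pair had 127 CPM each. Plagl1 measured 19.996, 17.1 and 19.7 CPM in ELE and 28.4 and 21.7 CPM in sedentary libraries, a log2 fold change of -0.40 ± 0.17. Over all 8 libraries Plagl1 fell by 0.83 on the log2 scale. Without TG7.4.1 or NT6.305 it was no longer called, at -0.33 and -0.20, nor was it in 1 fit over all groups.

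The remaining 6 genes were closer to 0 in the 5 SIT libraries kept. Grb10 was lower in every ELE library, at 15.6 to 17.1 CPM against 19.6 and 20.4 CPM, with a log2 fold change of -0.27 ± 0.15. For Peg3, Zdbf2, Nnat, Impact and Magel2 the groups overlapped, and their log2 fold changes lay between -0.15 and 0.14. By the study's rule (an unadjusted p under 0.05, and a log2 fold change of more than 0.39 either way), Plagl1 and Ndn were called among the 8 genes other than Cdkn1c, both lower. The same rule called 3.65% of 18238 genes, and 2.11% in the lower direction. Groups did not overlap for 3 of these 8 genes, and for 22.1% of all genes. Nothing is read from these counts, since the contrast had a part in the choice of genes. The median log2 fold change was -0.15 over the 9 genes and 0.00 over all genes tested. With all 8 libraries the calls among the 8 genes were Plagl1, Grb10, Peg3 and Zdbf2, and among the 4 mice numbered NT6, which are in both groups, Ndn alone. Several of these genes were thus further from 0 over all 8 libraries, with log2 fold changes of -0.84 ± 0.26 for Peg3, -0.66 ± 0.19 for Grb10 and -0.60 ± 0.23 for Zdbf2. The excluded sedentary pair had the highest level of all 3 genes in SIT, with 24.3 and 25.5 CPM of Zdbf2 against 11.2 to 18.2 CPM in the 6 others. Impact and Nnat were at -0.30 and 0.21 over all 8. Magel2 turned to -0.27 ± 0.67 over all 8 and to -1.37 ± 1.04 among the NT6 mice, where the excluded ELE library had 6 reads of it.

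**Figure D2:**
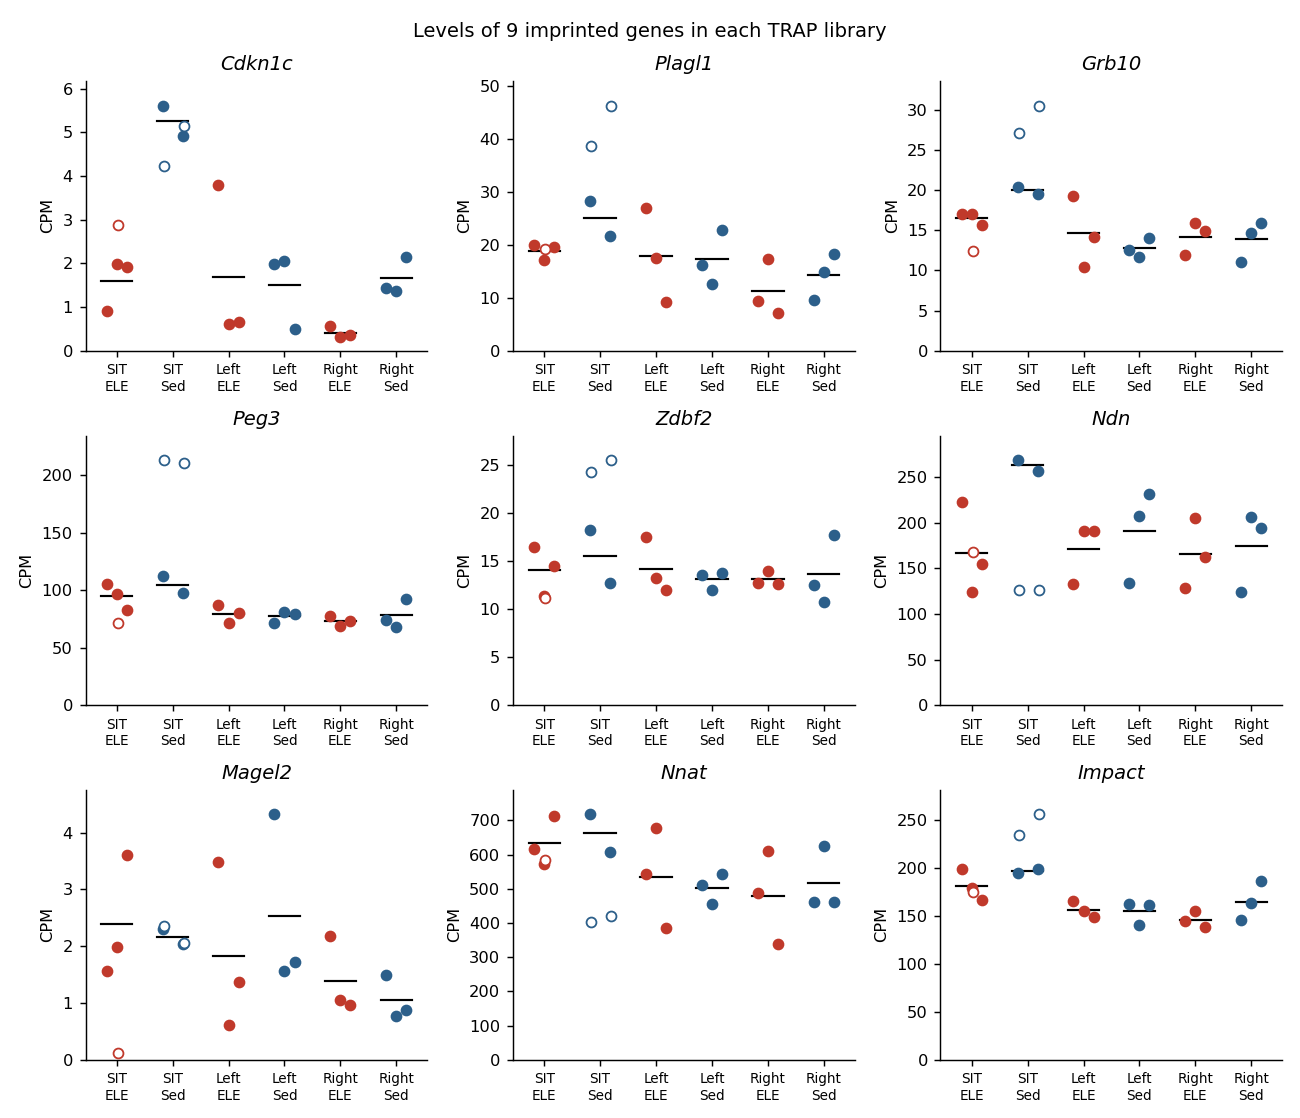
Level (CPM, linear axis) of each of the 9 genes in the 20 TRAP libraries, with red points for ELE, blue points for sedentary (Sed), open points for the 3 SIT libraries left out and a bar at the mean of the filled points. Cdkn1c shows 2 SIT sedentary points at 5.61 and 4.92 above 3 SIT ELE points at 0.900 to 1.98, and right ELE points at 0.320 to 0.563 below all right sedentary points.

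In the right hippocampus Cdkn1c was low in every ELE library. It measured 0.563, 0.320 and 0.357 CPM in ELE and 1.45, 1.37 and 2.16 CPM in sedentary libraries. The groups did not overlap, and the log2 fold change was -2.00 ± 0.43. Without each library in turn it stayed between -2.28 and -1.76. None of the other 8 genes was called and all 8 overlapped between the groups, with log2 fold changes from -0.33 for Plagl1 to 0.41 for Magel2. Plagl1 was called without ELE mouse TG9.1.3, at -0.80. Calls of all kinds made up 1.97% of 17570 genes, and lower calls 1.23%, and groups did not overlap for 7.66%. As in SIT, this contrast helped to choose the genes, and no test is attached.

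In the left hippocampus none of the 9 genes was called. Cdkn1c measured 3.79, 0.609 and 0.648 CPM in ELE and 1.98, 2.06 and 0.505 CPM in sedentary libraries, so that each group held high and low libraries. Its log2 fold change was 0.17 ± 0.79, with a 95% interval from -1.62 to 1.97. These values were known when the gene was chosen, and they too are a description. Without the high ELE library (mouse TG7.3.2) the log2 fold change was -1.28. That library was rich in Ttr (889 CPM), as were those of sedentary mice TG7.3.4 and TG9.1.2 (943 and 1164 CPM), which stayed in. The left libraries poor in Ttr had 0.609 and 0.648 CPM of Cdkn1c in ELE and 0.505 CPM in sedentary mouse TG9.2.4.

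The other genes did not separate left ELE from sedentary mice. Impact differed by 0.02 ± 0.09 and Peg3 by 0.04 ± 0.10 on the log2 scale, with 95% intervals of -0.17 to 0.22 and -0.19 to 0.28. Zdbf2, Nnat, Plagl1 and Grb10 differed by 0.06 to 0.20. Ndn differed by -0.15 ± 0.20 and Magel2 by -0.46 ± 0.64, with a wide 95% interval of -1.91 to 0.997. Without mouse TG7.3.2 Magel2 was called, at -1.36. All 9 genes overlapped between the groups. Among those other than Cdkn1c the smallest unadjusted p in edgeR's test was 0.376, for Grb10. Of the genes other than Cdkn1c edgeR and DESeq2 both called 0 here. Of all 17750 genes edgeR called 2.07%, and groups stood apart for 10.7%. No gene in the table reached an adjusted p under 0.05 on the left, and 699 (3.94%) had an unadjusted p under 0.05.

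**Figure D3:**
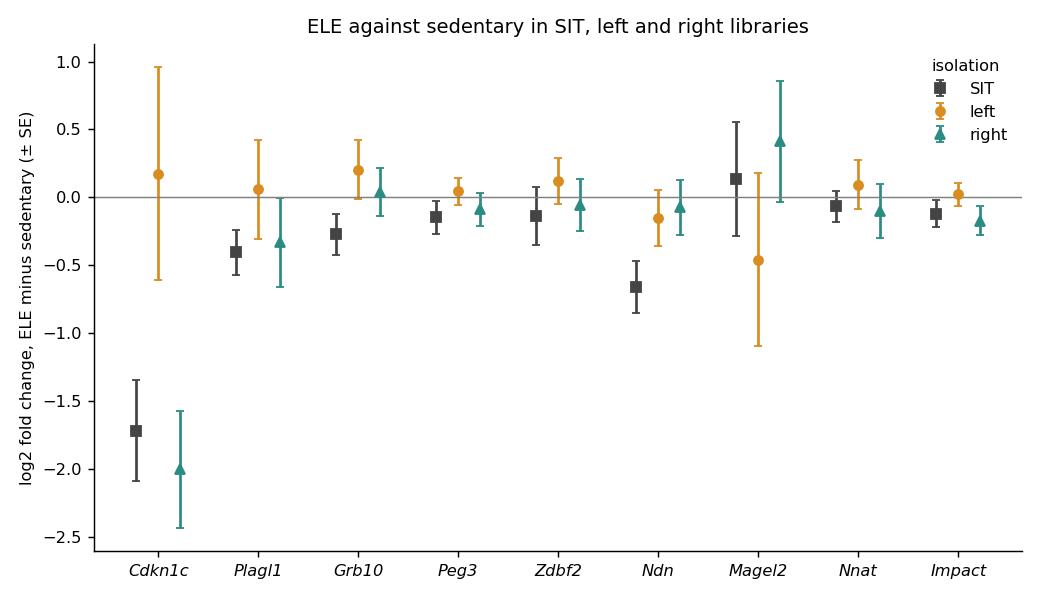
Log2 fold change of ELE minus sedentary (y axis, ± SE from edgeR) for each gene, with squares for SIT, circles for the left and triangles for the right hippocampus. Cdkn1c lies at -1.72 in SIT and -2.00 on the right and at 0.17 with a wide bar on the left, and most other points lie within 0.5 of zero.

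The effect of ELE on Cdkn1c was 2.18 ± 0.96 higher on the left than on the right, on the log2 scale. That difference was between 0.73 and 2.58 without each library in turn, with the lowest value when left ELE mouse TG7.3.2 was left out. For the other 8 genes the difference between hemispheres was from -0.87 ± 0.83 for Magel2 to 0.39 ± 0.55 for Plagl1. No test of the Cdkn1c difference is given, since the right values chose the gene.

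Transcripts of the choroid plexus were the closest to Cdkn1c across the 20 libraries, and other cell type lists moved as well. The choroid plexus is the secretory epithelium of the ventricles, which lies beside the hippocampus. The 3 genes whose log2 CPM was most like that of Cdkn1c over the 20 libraries, among 19918 genes, were the choroid plexus markers Ttr (r = 0.85), Kcne2 (r = 0.84) and Clic6 (r = 0.83). Over the 17 kept libraries these 3 were ranked 6, 13 and 5 (r of 0.81 to 0.84), behind the predicted gene Gm11196 (r = 0.86), Igf2 (r = 0.85) and Vat1l (r = 0.85). These are descriptions across libraries that also differ in isolation and exercise, with no p. In the separate isolations, the 4 libraries above 500 CPM of Ttr had 1.98 to 3.79 CPM of Cdkn1c, and the 8 others 0.320 to 1.45 CPM. Igf2, an imprinted growth factor known to be made by the choroid plexus, split the same way, at 1.64 to 3.12 against 0 to 0.766 CPM.

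The 10 choroid plexus markers had these values in the Cdkn1c comparisons, and their part in the Cdkn1c values was not tested beyond the values given here. None of the 10 was at 0 throughout a group. On the right, 7 of the 9 markers tested were called lower in ELE by edgeR and 3 by DESeq2, and their summed level was 63.3 to 111 CPM in ELE and 100.3 to 1747 CPM in sedentary mice. Without the right sedentary library rich in Ttr, which left 3 ELE and 2 sedentary libraries, the log2 fold change of Cdkn1c was -1.76. These 2 sedentary libraries had 13.2 and 55.4 CPM of Ttr with 1.45 and 1.37 CPM of Cdkn1c, and the ELE library with 19.6 CPM of Ttr had 0.563 CPM of Cdkn1c. Of the 10 markers, 3 were higher in both of these sedentary libraries than in all 3 ELE libraries, as Cdkn1c was. They were Folr1 (0.985 and 0.713 against at most 0.462 CPM), Aqp1 (at least 0.416 against at most 0.107 CPM) and Clic6 (at least 1.752 against at most 1.748 CPM). Igf2, which is not in the list, also stood apart, at 0.766 and 0.448 CPM against 0 to 0.281 CPM. For the other markers, Ttr, Kl, Kcne2, Otx2, Enpp2, Slc4a5 and Sostdc1, the lower of these sedentary values was below the highest ELE value. For Enpp2 these were 62.4 and 71.0 CPM, for Slc4a5 0.0876 and 0.678 CPM, and for Sostdc1 1.82 and 4.16 CPM. In SIT, 6 of 10 markers were called lower in ELE, and the summed level was 261 to 878 CPM in ELE and 901 to 1054 CPM in sedentary mice. The SIT ELE mouse TG7.4.2 and the sedentary mouse NT6.305 had nearly equal Ttr, at 529.6 and 528 CPM, and 1.93 and 5.61 CPM of Cdkn1c. The other 9 markers were all higher in NT6.305, Kcne2 with 4.27 against 1.81 CPM and Enpp2 with 296 against 291 CPM, and Igf2 was 3.54 against 1.01 CPM. On the left no marker was called, and the sums overlapped at 72.5 to 1538 CPM in ELE and 113 to 1884 CPM in sedentary mice. All 10 markers were below 0 on the left, with a median log2 fold change of -0.86, and Cdkn1c was at 0.17. The marker medians were -0.84 in SIT and -2.95 on the right, with Cdkn1c at -1.72 and -2.00. Over the 12 separate libraries the r of Cdkn1c was 0.88 with Ttr, 0.90 with Folr1, 0.84 with Kcne2 and 0.94 with Igf2.

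Other cell type markers also differed in these comparisons, and their part in the Cdkn1c values was not tested. On the right all 10 vascular markers were below 0, with a median log2 fold change of -1.27 and 2 called lower, and the summed level was 17.4 to 24.7 CPM in ELE and 20.4 to 62.0 CPM in sedentary mice. Of 8 meningeal markers tested there, 7 were below 0 and 1 was called lower, with sums of 14.7 to 17.1 and 14.2 to 19.7 CPM. Of 12 glial markers, 1 was called lower on the right, the microglial receptor Cx3cr1, and of 8 interneuron markers 1 was called higher. In SIT, 7 of the 8 interneuron markers were below 0 and 2 were called lower, with sums of 66.4 to 79.9 CPM in ELE and 81.3 to 81.9 CPM in sedentary mice. There 1 meningeal marker was called lower and no vascular or glial marker was called, and the medians of the meningeal and vascular lists were -0.42 and -0.57. On the left no meningeal, vascular, interneuron or glial marker was called by edgeR or DESeq2, and none had an unadjusted p under 0.05. Of the 8 progenitor markers, Nes alone was called, higher on the left. Of the hypothalamic markers tested, Trh was called higher in ELE on the left, where it was at a median of 8.49 against 0.156 CPM with groups that overlapped, and lower in SIT, and Avp was called higher on the right. Of the 8 excitatory markers, 7 were above 0 in SIT and on the right, with medians of 0.11 and 0.13, and Prox1, a marker of dentate granule cells, was called higher in SIT. The excitatory sums were 7283 to 7988 CPM in SIT ELE and 6919 to 6955 CPM in SIT sedentary mice.

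**Figure D4:**
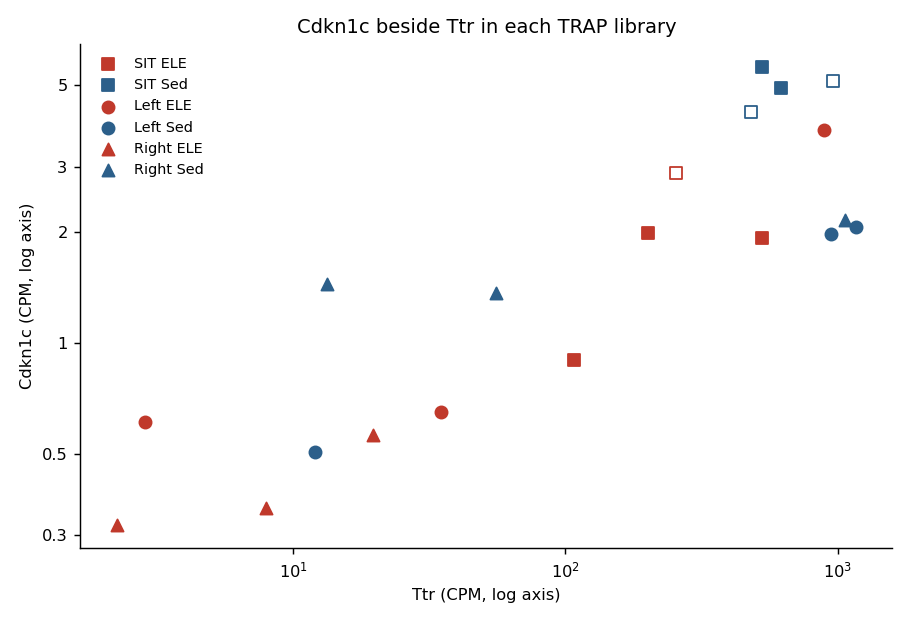
Cdkn1c (y axis) against Ttr (x axis) in CPM, both log axes, with 1 point for each of the 20 TRAP libraries, shape for isolation, red for ELE and blue for sedentary, and open symbols for SIT libraries left out. The separate libraries above 500 CPM of Ttr lie at 1.98 to 3.79 CPM of Cdkn1c, and the 8 others at 0.320 to 1.45 CPM.

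Other likenesses involved different genes. Grb10 was most like the imprinted gene Nap1l5 (r = 0.94 over 20 libraries and 0.93 over the 17 kept), and Nap1l5 was also called lower in SIT ELE mice, with a log2 fold change of -0.41 ± 0.10. Plagl1 was most like Tmem130 and Timp2 (each r = 0.88), followed by Impact (r = 0.86). Impact itself was most like Gmps, Lztfl1 and Brcc3 (each r = 0.93). Nnat was most like Ap1s1 (r = 0.86), Zdbf2 like Ids (r = 0.91) and Magel2 like Faim2 (r = 0.85). Ndn was most like 3 predicted genes, of which Gm14036 came first (r = 0.91). For Peg3 the closest were the mitochondrial tRNA mt-Tp (r = 0.96), Sox2ot and mt-Ty, and over the 17 kept libraries the r with mt-Tp was 0.76. Over those 17 libraries Nap1l5 and Gm14036 were again first for Grb10 and Ndn, whereas the first gene of the others was lower in rank: Ap1s1 at 3, Faim2 at 5, Ids at 8, Tmem130 at 19, Gmps at 20 and mt-Tp at 133. For Plagl1, Timp2 was then at rank 9 and Impact at 42. The Peg3 level was 213 and 211 CPM in the excluded sedentary pair and at most 112 CPM in all others. The neighbours Ndn and Magel2 were the least alike of the 36 pairs among the 9 genes, with r = -0.36 over the 17 kept libraries. In each group of the separate isolations the TG7.3 library had the lowest Ndn and the highest Magel2.

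The partners of these genes were listed without regard to how they moved in the present libraries, though after earlier results were known. Of 11 cell-cycle genes, Cip/Kip inhibitors, G1 cyclins and their kinases, 2 were called higher in ELE on the right, 1 on the left and none in SIT, where 0.746%, 1.1% and 1.54% of all genes were called higher. Cdkn1a, which encodes the related inhibitor p21, was called higher on both sides. It measured 8.48, 20.6 and 7.15 CPM in left ELE and 5.08, 4.42 and 6.74 CPM in left sedentary libraries, a log2 fold change of 1.15 ± 0.38 (edgeR adjusted p = 0.96). On the right it measured 9.29 to 10.1 CPM in ELE and 4.34 to 7.56 CPM in sedentary libraries, 0.75 ± 0.21 (edgeR adjusted p = 1.0). Its SIT log2 fold change was -0.48 ± 0.22 and was not called, and neither side passed the adjustment over all genes. The excluded SIT ELE library had 45.9 CPM of Cdkn1a, against 5.94 to 10.5 CPM in the 7 others, so that over all 8 the mean was higher in ELE. Ccna2, a cyclin of DNA replication, was the second call on the right, at 1.24 ± 0.64 CPM in the 3 ELE libraries and 0.389 ± 0.15 CPM in the 3 sedentary ones (SD).

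None of the 7 receptor and adaptor partners of Grb10, the 8 ubiquitin ligase and WASH partners of the MAGE genes, and the 7 GCN2 pathway partners of Impact was called by edgeR or DESeq2 in any of the 3 ELE comparisons. At an unadjusted p under 0.05 alone, 1 gene of each of these 3 lists passed in edgeR, in SIT for Grb10 and Impact partners and on the left for the MAGE partners. Of all genes, 5.48% passed in SIT and 3.94% on the left. Of 8 factors that maintain imprints, 1 was called higher on the left, Zfp57, by 0.88 ± 0.38 on the log2 scale (edgeR adjusted p = 0.96), with groups that overlapped, and none in SIT or on the right. For the next 2 lists, the shares of all genes called higher or lower given above are the background, 3.65% in SIT, 2.07% on the left and 1.97% on the right for both directions. Of 25 genes beside the members in their imprinted domains, 20 were tested, and 1 was called in SIT (Cobl, beside Grb10, lower), 1 on the left (Ddc, beside Grb10, higher) and none on the right. Of 27 imprinted genes of other domains, 23 were tested in SIT and 3 were called, all lower in ELE: Nap1l5, Igf2 and H19, the last listed at 0 reads in all 3 ELE libraries, which allows up to 3 reads each. In the ELE library left out H19 was at 1.12 CPM, within the 0.231 to 1.61 CPM of the 4 sedentary libraries. On the right, 1 of 24 was called, Igf2, at 0.130 ± 0.14 CPM in the 3 ELE libraries and 0.950 ± 0.61 CPM in the 3 sedentary ones (SD). None of 24 was called on the left by edgeR, and none had an unadjusted p under 0.05, whereas DESeq2 called Peg10.

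Left and right hippocampi were then compared within each exercise group. In sedentary mice Magel2 alone was called, at 4.32, 1.56 and 1.72 CPM on the left and 1.49, 0.774 and 0.880 CPM on the right. The highest value of each side came from a TG7.3 mouse. The log2 fold change of left against right was 1.28 ± 0.44 (edgeR adjusted p = 1.0), and the groups did not overlap. Calls made up 1.68% of 17670 genes, and groups did not overlap for 7.58%. Without left mouse TG7.3.4 the value was 0.65, and without right mouse TG9.2.3 the call was also lost. In ELE mice Cdkn1c had higher values on the left, with 0.609 to 3.79 CPM against 0.320 to 0.563 CPM and a log2 fold change of 2.05 ± 0.77. None of the other 8 genes was called or had groups apart, against 1.36% of 17696 genes called and 6.67% whose groups did not overlap. Without left mouse TG7.3.2, whose Ttr level was 889 CPM, the Cdkn1c value was 0.60. In this comparison all 8 choroid plexus markers tested were above 0, with a median log2 fold change of 2.81. Of them 4 were called higher, against 0.853% of all genes. All 7 meningeal and 5 of 9 vascular markers tested were above 0, and none was called by edgeR. The part of these markers in the Cdkn1c values was not tested. Plagl1 was called there without TG9.2.2 or TG9.1.3, at 0.98 and 1.13. The other 7 genes differed between left and right by no more than 0.27 in sedentary mice and 0.67 in ELE mice on the log2 scale, each with an adjusted p of 1.0 in edgeR's test, and Magel2 differed by 0.41 ± 0.62 in ELE mice.

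Finally the isolations were compared. All 8 genes other than Cdkn1c were higher in SIT than in separate isolation among sedentary mice, by 0.22 to 0.67 on the log2 scale, where 49.2% of all genes were. Cdkn1c was higher by 1.74. Groups did not overlap for 4 of the 8 genes other than Cdkn1c, and for 29.6% of all genes. Of these 8, 5 were called higher, against 5.52% of 18911 genes: Plagl1, Grb10, Peg3, Ndn and Nnat. The SIT sedentary libraries here are those of the ELE contrast that had a part in the choice of genes. Nothing is therefore read from these counts, and the adjusted p values that follow are descriptions. Grb10 measured 19.99 ± 0.61 CPM (SD, n = 2) in SIT and 13.3 ± 1.9 CPM (SD, n = 6) in separate isolation, 0.60 ± 0.14 (edgeR adjusted p = 0.014). Peg3 measured 105 ± 10 and 77.8 ± 8.8 CPM in the same order, 0.44 ± 0.11 (edgeR adjusted p = 0.018). Nnat differed by 0.39 ± 0.11 (edgeR adjusted p = 0.039) and Impact by 0.31 ± 0.09 (edgeR adjusted p = 0.046), the latter under the fold threshold. An adjusted p under 0.05 was reached by 13.6% of all genes. Ndn and Plagl1 did not pass the adjustment (0.082 and 0.079). Cdkn1c measured 5.27 ± 0.49 CPM in SIT and 1.59 ± 0.62 CPM in separate isolation, a description only, since its SIT sedentary values helped to choose it.

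These calls depended on single libraries and on the fit. Without sedentary mouse NT6.305 only Grb10 of the 8 was called, and in 1 fit over all groups Grb10, Peg3 and Ndn were. Nnat was not called without TG9.1.2, TG7.3.3 or TG9.2.3 (0.36 to 0.37), nor Ndn without NT6.306 (0.56). With all 8 SIT libraries Plagl1, Grb10, Peg3, Zdbf2 and Impact were called, and the values of Ndn and Nnat were 0.11 and 0.09. The share of all genes called in that fit is not given here, so nothing is read from these calls.

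In ELE mice 8 of the 9 genes were above 0 in SIT against separate isolation. None of the 8 genes other than Cdkn1c was called, against 12.8% of 18478 genes. These SIT ELE libraries too were in the contrast that had a part in the choice of genes, so the values are descriptions. Groups did not overlap for 1 gene, Impact, and for 15.1% of all genes. Peg3 differed by 0.31 ± 0.10 (edgeR adjusted p = 0.058) and Impact by 0.26 ± 0.08 (edgeR adjusted p = 0.057), both below the fold threshold, and they were the 2 members with an unadjusted p under 0.05. DESeq2 also called 0 of the 8 genes. Ndn was at -0.01 ± 0.18, against 0.53 ± 0.19 in sedentary mice, a pair whose difference was not tested.

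**Figure D5:**
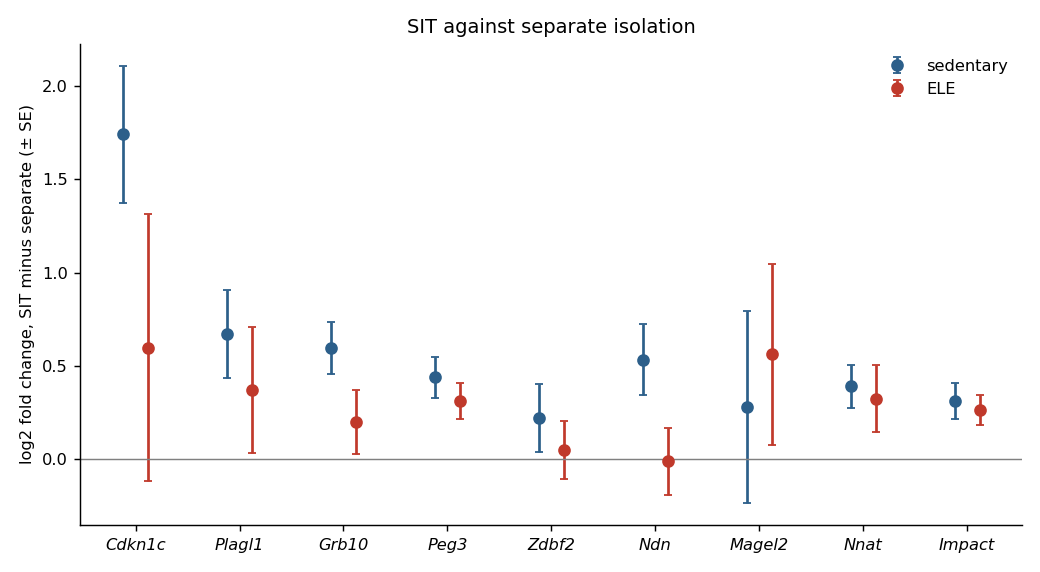
Log2 fold change of SIT minus separate isolation (y axis, ± SE from edgeR) for each gene, in blue for sedentary mice (2 against 6 libraries) and red for ELE mice (3 against 6). All 9 blue points lie above 0, from 0.22 for Zdbf2 to 1.74 for Cdkn1c, and Ndn in ELE mice lies at -0.01.

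Other lists moved in the same comparison. All 8 interneuron markers were called higher in sedentary SIT libraries, 3 of 7 insulin and IGF receptor partners (Igf1r, Irs1, Insr) were called lower, against 5.52% of all genes called higher and 9.97% called lower, and Camk2a, a kinase of excitatory neurons, was 2668 ± 90 CPM (SD, n = 2) in SIT and 4282 ± 676 CPM (SD, n = 6) in separate isolation. No choroid plexus marker was called by edgeR or DESeq2, and none had an unadjusted p under 0.05. SIT and separate libraries came from different mice, combined or single hippocampi and different protocols, so that these cannot be told apart.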

How the data were processed

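TRAP-seq counts of 20 hippocampal libraries were analysed. Per the labels and the study's methods, the authors aligned reads with STAR 2.7.3a to GRCm38, removed duplicates with Picard 1.87 and counted read pairs on exons with strand taken into account, and they deposited whole-number counts per gene, not normalized. Symbols, positions and exonic lengths came from the GENCODE annotation of GRCm38, matched without the version of the identifier for 55154 of 55335 genes. A wild-type table with 24 columns that could not be tied to samples was not used. The SIT libraries the study kept were found as the only 1 of 24 subsets whose mean normalized counts matched the study's list (633 of 633 genes).

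Counts were scaled by TMM, filtered with filterByExpr and tested with edgeR 4.0.16 (R 4.3.3) by the quasi-likelihood test on the groups compared, with Benjamini-Hochberg adjustment over all genes tested. SE is the log2 fold change divided by the square root of F. Genes were called after the study's methods by 2 limits, 0.05 for the unadjusted p and about 0.39 for the size of the log2 fold change. Likeness was Pearson's r of log2(CPM + 0.5). The named genes were the 9 members, the 3 genes most like each, and up to 5 called genes per list with groups that stood apart, of which a part is given. Cdkn1a, Ccna2 and Igf2 fall under that rule, whereas genes outside it, such as Zfp57 and Peg10, were named after their values were seen.

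The members, lists and comparisons were chosen with earlier results of these data known. Alternatives were median-of-ratios scaling, no filter, DESeq2 1.42.0, 1 fit over all groups, a block for mice whose numbers begin alike, other sets of SIT libraries, and each library left out. Leaving out libraries above 500 CPM of Ttr was added after the values were seen. The fits were tested on simulated counts before use. Replicate libraries came from separate mice, and the lowest chi-square per gene within a group was 18.9, so that none was a repeat of another. Depth was 45895097 to 65767802 counts per library, and limits set by reads cover counting error only.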

Additional observations from a re-analysis of the deposited data

How the results depend on the processing

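Scaling by median-of-ratios size factors left every count of called members as it was, and so did DESeq2. Cdkn1c in SIT stayed between -1.90 and -1.38 and on the right between -2.28 and -1.76 on the log2 scale under all alternatives, as a description, since both chose the gene. The counts of called members in this section include it. With all 8 SIT libraries 5 members were called in SIT. Without a filter on low counts 2 members were called between left and right in ELE mice, and without libraries above 500 CPM of Ttr 0 were; between left and right in sedentary mice that last choice gave 1 call as before, now Plagl1 (0.90) in place of Magel2 (0.61), from 1 left and 2 right libraries. Leaving out each library in turn, the members called numbered 0 to 1 on the left, 2 to 3 in SIT, 1 to 2 on the right, 0 to 1 and 0 to 2 between left and right in sedentary and ELE mice, and 2 to 6 (4 in 1 fit over all groups) and 0 to 3 between SIT and separate isolation in sedentary and ELE mice. The difference of the Cdkn1c effect between left and right was 0.73 to 2.58 without each library. On the left, leaving out TG7.3.2 brought a call of Magel2, and TG9.1.4 a call of Grb10. In SIT against separate ELE mice, TG7.3.2 brought calls of Cdkn1c, Plagl1 and Magel2, TG9.1.4 of Nnat and TG7.4.2 of Peg3. The cause was not tested.

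Over all genes, mice whose numbers share a first part did not pair: deviations from the group means correlated between -0.0971 and 0.21 across the 12 pairs. Ndn and Magel2 did follow the first part in the separate isolations. In each group the TG7.3 library had the lowest Ndn, at 125 to 134 CPM against 163 to 231 CPM in the others. It also had the highest Magel2 of its group, at 1.49 to 4.32 CPM. With that part as a replicate block, 0, 1, 1 and 1 members were called on the left, on the right and between left and right in sedentary and ELE mice, as without it, and the difference of the Cdkn1c effect was 2.07.

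Counts of all called genes moved further. On the left 367 genes were called, 691 without a filter, 552 with DESeq2 and 129 without libraries above 500 CPM of Ttr, which left 2 ELE mice and 1 sedentary mouse; a lone library is assumed to vary like the others. In SIT 665 were called, 1350 with all 8 libraries, 1179 among the NT6 mice and 1111 in 1 fit over all groups. On the right it was 347, and 715 without a filter. Between left and right it was 297 in sedentary mice (721 without a filter, 171 in 1 fit) and 241 in ELE mice (501 without a filter, 469 with DESeq2, 508 in 1 fit). Without each library in turn these counts were 220 to 945 on the left, 355 to 1086 in SIT, 308 to 643 on the right, and 260 to 650 and 253 to 599 between left and right in sedentary and ELE mice. Of 774 values of single members under alternatives, 0 were called in the opposite direction. The depth of 6 to 293 reads per library for Cdkn1c and Magel2 limits what can be seen of both genes.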
